A study of Mus musculus with 8 samples.

Results

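The 10 genes described here, most of which cells switch on within minutes of a stimulus, were followed across all 8 RNA libraries of a study of mouse regulatory T (Treg) cells. They were Fos, Fosb, Fosl2, Jun, Junb, Jund, Atf3 and Ier2, together 8 genes of the AP-1 and immediate-early group, and Hspa1a and Hspa1b, the 2 inducible HSP70 genes. The genes were chosen by name, with their values in these same libraries already known, out of the 53465 gene identifiers in the deposited files. All values below are therefore a description and carry no p-value. Each condition was sequenced as 1 library, so no difference has a replicate check.

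The study removed and restored Brg1 (Smarca4), the ATPase of the BAF chromatin remodelling complex, in Treg cells of mice 3–4 weeks old. The mice were bred on a C57BL/6 background. Every genotype of the total Treg experiment carried R26CAG-FlpoER, a recombinase that tamoxifen (TAM) switches on, and, except for 1 sorted subset, Cre came from the Foxp3YFP-Cre allele, which acts in Treg cells alone. Total Treg cells gave 6 libraries. The WT library had the genotype BrgF/+ Foxp3YFP-Cre/+, so these cells were heterozygous for Brg1 once Cre had acted. Mosaic females, in which X inactivation leaves part of the Treg cells without Cre and which were healthy, gave a Brg1-sufficient library (BrgF/ΔR Foxp3+/+) and a Brg1-deleted library (BrgF/ΔR Foxp3YFP-Cre). The rKO1 mice (BrgF/ΔR Foxp3YFP-Cre/YFP-Cre), which were inflamed, gave a Brg1-deleted library without treatment. On Day 7 after low-dose TAM, which restored Brg1 in part of the Treg cells, they gave a Brg1-deleted and a Brg1-reexpressed library. The latter was labelled BrgF/+ Foxp3YFP-Cre/YFP-Cre, since the ΔR gene trap had been flipped back. Mice with the ΔR allele were made on a mixed background and had fewer backcrosses to C57BL/6 than the other strains. Whether background differs between the libraries was not tested. Activated Treg (aTreg) cells (CD44hi CD62Llo) of rKO1 mice, taken on the same day after treatment, gave 2 libraries in a separate experiment, so that levels are compared only within each experiment. The aTreg library titled as Brg1-deleted has a column headed WT and a genotype of BrgF/F Foxp3YFP-Cre/YFP-Cre, and it is called labelled Brg1-deleted here. Its partner, with the genotype BrgF/+ Foxp3YFP-Cre/YFP-Cre, is called labelled Brg1-reexpressed. Cells came from spleen and lymph nodes, and how many mice were pooled is not given in the sources used here.

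AP-1 is a family of dimeric transcription factors. A Fos protein pairs with a Jun protein, and Atf3 can pair with Jun proteins. In resting T cells most of these genes are nearly silent, and signals from the T cell receptor, cytokines or stress reach them through MAP kinases and factors that already sit on their promoters, so that transcription starts without new protein synthesis. The transcripts are short-lived and are cleared within hours, partly by decay factors such as Zfp36 that are themselves immediate-early gene products. HSP70 chaperones bind unfolded proteins, and their inducible genes are switched on by heat shock factor 1 (HSF1). In Treg cells AP-1 is known as a partner of NFAT at activation genes, a role that FOXP3 can take over. Both gene groups are also known to be transcribed while single cells are prepared from tissue.

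The stretches of 150 bases upstream of 7 of the genes are shown because immediate-early and heat shock genes are known to be induced through elements close to the start. The sequences are those of RefSeq on GRCm38.p6, written 5′ to 3′ along the strand of the gene and ending at the base before the start site. Capitals mark TGACG, the core of the cyclic AMP response element, on either strand, and GAANNTTC, an inverted pair of the units of a heat shock element.
Fos: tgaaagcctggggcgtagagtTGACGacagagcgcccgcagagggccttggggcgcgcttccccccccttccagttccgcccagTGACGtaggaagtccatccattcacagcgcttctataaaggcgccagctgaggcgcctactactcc
Fosb: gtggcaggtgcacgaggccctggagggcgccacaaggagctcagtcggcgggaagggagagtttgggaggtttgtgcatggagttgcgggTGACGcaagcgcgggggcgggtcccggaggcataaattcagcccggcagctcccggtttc
Junb: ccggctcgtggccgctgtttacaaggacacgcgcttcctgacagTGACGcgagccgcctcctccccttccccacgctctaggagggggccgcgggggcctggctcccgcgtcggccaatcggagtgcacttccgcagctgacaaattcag
Atf3: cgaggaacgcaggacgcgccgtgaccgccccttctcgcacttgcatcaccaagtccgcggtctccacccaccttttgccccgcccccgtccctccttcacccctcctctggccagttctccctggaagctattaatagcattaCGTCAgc
Jun: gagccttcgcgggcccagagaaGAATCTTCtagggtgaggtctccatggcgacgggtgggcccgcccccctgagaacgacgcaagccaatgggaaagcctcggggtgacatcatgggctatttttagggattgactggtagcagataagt
Hspa1a: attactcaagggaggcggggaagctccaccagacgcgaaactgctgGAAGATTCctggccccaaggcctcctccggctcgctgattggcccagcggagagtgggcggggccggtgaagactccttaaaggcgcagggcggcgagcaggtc
Hspa1b: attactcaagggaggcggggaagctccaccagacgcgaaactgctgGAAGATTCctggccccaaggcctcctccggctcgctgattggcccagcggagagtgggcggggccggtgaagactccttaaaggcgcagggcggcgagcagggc
The stretches lie at chr12:85473740-85473889 (plus strand), chr7:19310046-19310195 (minus), chr8:84978749-84978898 (minus), chr1:191183334-191183483 (minus), chr4:95052223-95052372 (minus), chr17:34972157-34972306 (minus) and chr17:34959239-34959388 (minus). Of the 10 genes, 9 were matched in the promoter table, and Ier2 was not. Over the 250 bases upstream of the start, TGACG stood in 4 of the 9 matched genes (Fos, Fosb, Junb and Atf3), against 17.8% of 32851 promoters of the same length. Counted back from the start site, the Fos stretch held it at −129 and −66, that of Fosb at −60, that of Junb at −106 and that of Atf3 at −7. GAANNTTC stood in 4 of the 9 (Fosl2, Jun, Hspa1a and Hspa1b), against 6.69% of all promoters, at −104 in both HSP70 genes, at −128 in Jun and at −244 in Fosl2. The 250 upstream bases of the 2 HSP70 genes differ at 3 positions, so that their matches are not separate. The full palindrome TGACGTCA (1.55% of all promoters), the AP-1 site TGANTCA (6.75%) and the CArG box of serum response factor (1.47%) were found in 0 of the 9, and TATAAA (12.4%) in Fos alone. These are matches of letters on both strands within this window only. The RefSeq starts of Atf3 and Fosl2 lie within the longer annotated genes given below. That of Jund lies upstream of the annotated gene, so that Jund is not shown, although it is counted among the 9. Among the 10 genes, 5 have exons that form 1 unbroken block (Jun, Jund, Ier2, Hspa1a and Hspa1b), against 8.94% of the 11370 genes that reached 5 CPM (reads scaled by the library total) in any library.

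The 8 libraries held between 16324008 and 24093551 recovered reads on genes. Smarca4 itself was at 14.8 FPKM (fragments per kilobase of exon, scaled to a library total) in the WT library, 12.1 in the mosaic Brg1-sufficient and 7.44 in the mosaic Brg1-deleted library, and at 7.34, 6.13 and 9.52 in the untreated, Brg1-deleted and Brg1-reexpressed rKO1 libraries. In total Treg cells it was thus higher in each library labelled as having BRG1. In aTreg cells it went against the labels, with 9.02 FPKM in the library labelled Brg1-reexpressed and 11.1 in that labelled Brg1-deleted. The 7 Treg markers, Foxp3 included, were above 1 FPKM in all 8 libraries, and Foxp3 ranged from 20.01 FPKM in the WT to 137 in the mosaic Brg1-sufficient library among total Treg cells. The latter cells were sorted as lacking the YFP reporter, so that no Foxp3 reporter marked them. Reads from 4 Y-linked genes were 0 in the WT and both mosaic libraries and 4155 in the untreated rKO1 library, whose label names 2 Foxp3YFP-Cre alleles and which had 10 Xist reads. The other 4 libraries held both, so the sexes differ between libraries that are compared below. In bulk RNA of this kind, fewer cells that transcribe a gene and less RNA in each cell cannot be told apart.

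Among the Fos proteins, Fos, the founding member of the family (chr12:85473890-85477273), was at 162 FPKM in the WT library, 7.52 (Brg1-sufficient) and 8.60 (Brg1-deleted) in the mosaic libraries, 28.4 in the untreated rKO1, 71.3 in the TAM-treated Brg1-deleted and 35.5 in the Brg1-reexpressed library. WT was highest, the 3 rKO1 libraries lay between, and both mosaic libraries were lowest. In aTreg cells it was at 11.7 FPKM in the library labelled Brg1-deleted and 7.14 in that labelled Brg1-reexpressed.
Fosb, a close relative of Fos (chr7:19302696-19310051), was at 2.01, 0.108, 0.128, 0.796, 2.58 and 0.609 FPKM in these libraries, so that the TAM-treated Brg1-deleted library was highest, WT came next and both mosaic libraries were again lowest. In aTreg cells, the 0.110 and 0.0240 FPKM of Fosb rested on 12 and 3 reads. Fosl2, which codes for Fra-2 (chr5:32135801-32157842), was low throughout, at 0.395, 0.179, 0.143, 0.747, 1.71 and 0.510 FPKM in total Treg cells and 0.101 and 0.325 FPKM in aTreg cells. Here all 3 rKO1 libraries were above WT, although the Brg1-reexpressed library was not beyond counting error of it (1.29-fold, 95% interval 0.909–1.85).

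Among the Jun proteins, Junb (chr8:84974484-84978718) restrains c-Jun in some settings. Of the Fos and Jun transcripts followed here it was the most abundant in all 8 libraries. Batf, another AP-1 subunit, was above Junb in the mosaic Brg1-sufficient cells alone, at 193 FPKM. Junb was at 1658 FPKM in WT, and at 174 and 96.3 in the Brg1-sufficient and Brg1-deleted mosaic cells. In rKO1 mice Junb was at 259 FPKM untreated, 838 in TAM-treated Brg1-deleted and 426 in Brg1-reexpressed cells. All 5 steps between neighbours in the order of level were beyond counting error, the smallest being 1.49-fold. In aTreg cells Junb was at 321 and 285 FPKM. Jun (chr4:95049034-95052222), which codes for c-Jun, was at 77.97, 5.86, 3.27, 12.9, 27.7 and 9.49 FPKM in the same order of libraries, a 23.8-fold range. In aTreg cells Jun showed the widest gap of any of the 10 genes that passed 5 CPM, at 11.8 FPKM in the library labelled Brg1-deleted and 2.43 in that labelled Brg1-reexpressed. Jund (chr8:70698949-70700616), which most cells transcribe without a stimulus, went another way, with 32.1 FPKM in the WT, 33.2 in the mosaic Brg1-sufficient, 22.5 in the mosaic Brg1-deleted, 17.1 in the untreated rKO1, 13.5 in the TAM-treated Brg1-deleted and 20.2 in the Brg1-reexpressed library. Its range was 2.45-fold, and it was lowest where Fosb, Fosl2 and Atf3 were highest. The value of Jund is uncertain, since 52.6% of its exon bases overlap Gm11175 on the other strand. For Jun (7.28% with Junos) and Junb (7.52% with Prdx2) such overlap is small. The library kit does not mark strand, so reads from the overlapping genes cannot be told apart.

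Atf3 (chr1:191170296-191218039), a stress-induced factor of the ATF family, was at 0.336, 0.178 and 0.137 FPKM in the WT and both mosaic libraries, on 11, 8 and 7 reads, and these 3 values did not differ beyond counting error. It was at 0.498 FPKM in the untreated rKO1, 3.84 in the TAM-treated Brg1-deleted and 1.4996 in the Brg1-reexpressed library, so that both TAM libraries stood above the rest. In aTreg cells Atf3 was at 0.372 and 0.812 FPKM. Ier2 (chr8:84661331-84662852), a nuclear immediate-early protein whose gene lies 311631 bases from Junb, was at 595, 190, 123, 257, 393 and 289 FPKM in the total Treg libraries, in the same order as Junb with all 5 steps beyond counting error. Its range of 4.82-fold was narrower than the 17.2-fold range of Junb. In aTreg cells Ier2 was at 258 and 225 FPKM.

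The HSP70 genes Hspa1a (chr17:34969190-34972156) and Hspa1b (chr17:34956436-34959238) lie 9951 bases apart and code for nearly the same protein. The bases shown above differ between them at 1 position, and 38.1% of all stretches of 150 bases in the Hspa1a transcript also occur in that of Hspa1b, so that reads may have been lost or placed on the wrong copy. Hspa1b was at 4.68 FPKM in the WT library, on 199 reads, and at 0.326, 0.0900, 0.403, 0.814 and 0.226 FPKM in the other 5 total Treg libraries, on 6 to 38 reads each. Hspa1a was at 1.18 FPKM in the WT library, on 53 reads, and had 2, 1, 0, 5 and 3 reads in the others. Exons of Hspa1a also share 19.0% of their bases with Gm20481. WT was the one total Treg library with more than a trace of either gene, 5.75-fold (4.05–8.36) above the next for Hspa1b and 11.6-fold (4.68–37.3) for Hspa1a. In aTreg cells, Hspa1b was at 1.18 and 0.749 FPKM and Hspa1a at 0.367 and 0.135 FPKM, the library labelled Brg1-deleted being the higher for both.

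**Figure D1:**
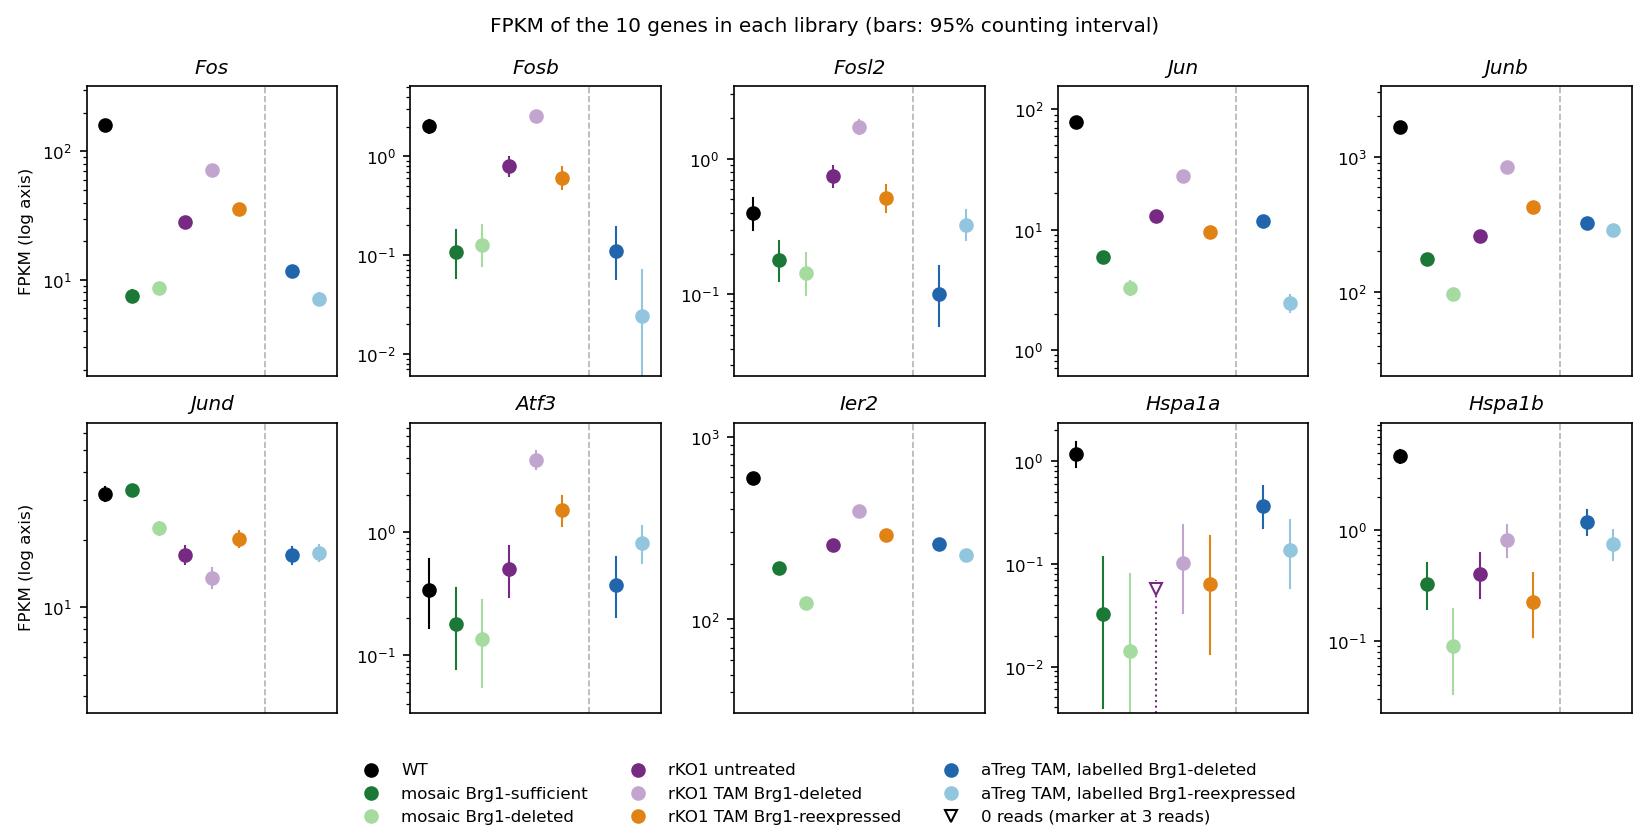
FPKM of each of the 10 genes (log axis, a separate scale for each gene) in the 6 total Treg libraries and, right of the dashed line, in the 2 aTreg libraries, which were sequenced apart. Points are single libraries, bars are 95% counting intervals (exact Poisson), and the open triangle marks 0 reads of Hspa1a in the untreated rKO1 library. WT is highest for 6 genes, the mosaic Brg1-deleted library is lowest for 6, and Jund spans a 2.45-fold range with its lowest value in the TAM-treated Brg1-deleted library.

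Across total Treg cells, 6 of the 10 genes were highest in the WT library (Fos, Jun, Junb, Ier2, Hspa1a and Hspa1b) and 3 in the TAM-treated Brg1-deleted library (Fosb, Fosl2 and Atf3). Jund was highest in the mosaic Brg1-sufficient library, within counting error of WT. For the 6 genes that were highest in WT, the TAM-treated Brg1-deleted library came next in each case. Without the WT library, it was the highest for 9 of the 10 genes. The mosaic Brg1-deleted library was the lowest for 6. Together, the 10 genes took 0.475% of the reads of the WT library, 0.0709% and 0.0474% in the mosaic Brg1-sufficient and Brg1-deleted libraries, and 0.123%, 0.286% and 0.129% in the untreated, Brg1-deleted and Brg1-reexpressed rKO1 libraries. Scaling by total reads kept the highest library above the second for all 10 genes.

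The mix of AP-1 transcripts differed between libraries. Per length, Junb and Ier2 together made up between 86.3% and 94.6% of the summed FPKM of the 10 genes in every library. In the WT library Junb was 51.7 times and Fos 5.04 times the level of Jund, and in the TAM-treated Brg1-deleted library these ratios were 61.9 and 5.27. In the mosaic Brg1-sufficient library the same ratios were 5.24 and 0.227, and in the mosaic Brg1-deleted library 4.28 and 0.382, so that Jund was above Fos there. Ier2 exceeded Junb in both mosaic libraries, while Junb exceeded Ier2 in the other 6. The ratio of Fos to Jun ranged from 0.990 in the aTreg library labelled Brg1-deleted to 3.74 in the Brg1-reexpressed rKO1 library.

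The first comparison set Brg1-deleted against Brg1-sufficient Treg cells of the healthy mosaic females, where both grow side by side. They also differ in sort gate and in the Foxp3YFP-Cre allele, which cannot be told apart from loss of BRG1. Foxp3 itself was at 137 FPKM in the Brg1-sufficient and 62.7 in the Brg1-deleted library. Here and below, with and without BRG1 only name the libraries of this pair. A gene was tested where it reached 5 CPM in one library of a pair or in both, and called where it then differed 2-fold or more on the log2(FPKM + 0.1) scale. Of the 10 genes 0 were called, while 5.77% of the 10123 genes tested were called, 1.86% as higher and 3.91% as lower. The median log2 difference of the 10 genes was −0.40, Brg1-deleted less Brg1-sufficient, against −0.03 for all genes tested. Junb was 1.81-fold higher in the Brg1-sufficient cells (1.75–1.87), Jun 1.79-fold (1.52–2.11) and Ier2 1.54-fold (1.48–1.60). Jund was likewise 1.47-fold higher with BRG1 (1.35–1.61). Fos was 1.14-fold higher in the Brg1-deleted cells (0.996–1.31), so that a difference was not detectable at this depth. Hspa1b was 3.62-fold higher with BRG1 (1.39–11.1), on 19 and 6 reads and below 5 CPM in both libraries. Only 5 of the 10 genes reached 5 CPM in this pair.

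The second comparison set Brg1-reexpressed against Brg1-deleted Treg cells of the same inflamed rKO1 mice on Day 7 after TAM. Of the 10 genes, 8 passed the filter, and 5 were called lower in the Brg1-reexpressed cells (Fos, Fosb, Fosl2, Jun and Atf3) and 0 higher. Among the 10481 genes tested, 12% were called, 6.22% as higher and 5.81% as lower. Fosb was 4.23-fold lower with BRG1 (3.19–5.70), Fosl2 3.35-fold (2.599–4.37), Jun 2.92-fold (2.63–3.24) and Atf3 2.56-fold (1.85–3.61). Fos was 2.01-fold lower (1.88–2.14) and Junb 1.97-fold lower (1.93–2.01), on either side of the threshold of 2. The call of Fos was lost with an own TMM scaling and with the median of ratios, and Junb was called lower when scaled by total reads. Jund alone was higher, 1.49-fold (1.304–1.71). The median log2 difference of the 10 genes was −1.15, against 0.01 for all genes tested. Markers of other cells were also lower in the Brg1-reexpressed library. The myeloid sum was 93.4 FPKM against 237, with every marker of that list but Itgam lower. The CD8 T or NK cell sum was 8.23 against 13.6 FPKM, although Cd8b1 was higher. The part of other cells in this pair was not tested. Whether these members behave differently here and in the mosaic females was not tested, since each condition has 1 library.

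The next comparison asked whether the Brg1-deleted cells that stayed behind after TAM were like those of untreated rKO1 mice. Of the 10 genes 8 passed the filter, and for 6 they were not within 2-fold, being called higher after TAM (Fos, Fosb, Fosl2, Jun, Junb and Atf3), with 0 called lower. Of the 10474 genes tested, 4.18% were called, 2.13% as higher and 2.05% as lower, the lowest share of calls among the 6 comparisons. Atf3 was 7.72-fold higher after TAM (4.76–13.2), Junb 3.24-fold (3.17–3.31), Fosb 3.24-fold (2.53–4.17), Fos 2.51-fold (2.35–2.69), Fosl2 2.29-fold (1.85–2.85) and Jun 2.15-fold (1.96–2.35). Atf3, Junb and Fosb lay above the 99th percentile of all genes tested. Ier2 was 1.53-fold higher (1.48–1.58), Hspa1b 2.02-fold (1.15–3.66, below 5 CPM), and Jund was 1.26-fold lower (1.10–1.45). Fosl2 and Jun fell short of 2-fold when scaled by total reads. The untreated library was the one with next to no Xist reads. S100a8, S100a9 and Ncr1, markers of neutrophils and NK cells, were also higher after TAM. Of the same myeloid and NK cell lists, Lyz2, Csf1r, Adgre1, Tyrobp, Fcer1g, Cd14 and Eomes were lower. The myeloid sum was 250 FPKM untreated and 237 after TAM, and the CD8 T or NK cell sum 6.55 and 13.6. The part of sex and of other cells in these differences was not tested.

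These last comparisons share the TAM-treated Brg1-deleted library, so that their opposite directions are not separate observations. Set against the untreated library in its place, the Brg1-reexpressed cells had 0 of the 10 genes called, against 18.9% of the genes tested, 9.49% as higher and 9.4% as lower. Junb was then 1.64-fold higher (1.60–1.69), Fos 1.25-fold higher (1.16–1.36) and Jun 1.36-fold lower (1.21–1.53) in the Brg1-reexpressed cells. Atf3 was 3.01-fold higher (1.75–5.3997), below 5 CPM in both libraries, and Fosl2 was 1.46-fold lower (1.10–1.96). With the untreated library as the reference, Jun and Fosl2 thus kept the lower level with BRG1, by less than 2-fold. Fos, Junb and Atf3 did not. Fosb was 1.31-fold lower (0.931–1.85), which counting error spans.

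The fourth comparison set untreated rKO1 against WT Treg cells, inflamed and without BRG1 against healthy and with it. Of the 10 genes, 8 passed the filter, and 6 were called lower in rKO1 (Fos, Fosb, Jun, Junb, Ier2 and Hspa1b) and 0 higher, where 15.1% of the 10654 genes tested were called, 8.03% as higher and 7.07% as lower. Hspa1b was 11.6-fold lower (7.31–19.4), and Hspa1a, with 0 reads in rKO1, was at least 20.6-fold higher in WT when 3 reads are taken as the floor of the rKO1 library. Junb was 6.40-fold lower (6.27–6.54), Jun 6.05-fold (5.59–6.56) and Fos 5.70-fold (5.35–6.07), with Fosb and Ier2 nearer to the threshold at 2.53-fold and 2.31-fold. Fosl2 was instead 1.89-fold higher in rKO1 (1.38–2.63). With total reads as the scale, Fosb and Ier2 were no longer called and Fosl2 was called higher.
The direction depended on the control. Against the mosaic Brg1-sufficient library, 3 of the 10 genes were called higher in the untreated rKO1 cells (Fos, Fosl2 and Jun) and 0 lower, with 16.5% of the genes tested called, 9.22% as higher and 7.31% as lower. Fos was then 3.77-fold higher (3.35–4.25) where it had been 5.70-fold lower against WT.

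WT and mosaic Brg1-sufficient cells both carry BRG1 and come from healthy mice, and the fifth comparison set them side by side. Of the 10 genes, 7 passed the filter, and 6 were called lower in the mosaic library (Fos, Fosb, Jun, Junb, Ier2 and Hspa1b), with 8.91% of the 10260 genes tested called, 3.67% as higher and 5.23% as lower. Fos was 21.5-fold lower (19.3–23.9), Fosb 18.7-fold (10.9–34.9), Hspa1b 14.4-fold (8.95–24.3), Jun 13.3-fold (12.0–14.8), Junb 9.53-fold (9.31–9.75) and Ier2 3.13-fold (3.04–3.23). All of these but Ier2 were below the 1st percentile of the genes tested, and their median over the 10 genes was −3.26 on the log2 scale against −0.04 for all genes tested. Hspa1a was 36.3-fold lower (9.57–308), on 2 reads against 53. Jund differed by 1.04-fold (0.945–1.13), and Atf3 was at 1.88-fold (0.690–5.397), which counting error spans. The mosaic Brg1-deleted library was likewise low against WT, with 6 of the 10 genes called lower and 0 higher, where 13.2% of the genes tested were called, 4.87% as higher and 8.33% as lower. WT and mosaic Brg1-sufficient cells differ in genotype, in sort gate and in host, which cannot be told apart.

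In aTreg cells, 5 of the 10 genes passed the filter and 1 was called, Jun, 4.85-fold lower in the library labelled Brg1-reexpressed (4.06–5.81), where 5.88% of the 10033 genes tested were called, 3.91% as higher and 1.97% as lower. Fos was 1.63-fold lower (1.42–1.88), while Junb and Ier2 were 1.13-fold (1.10–1.15) and 1.14-fold (1.11–1.18) lower. Jund was at 1.02-fold (0.904–1.15). Fosl2 and Atf3 were higher in the library labelled Brg1-reexpressed, 3.23-fold (1.87–5.90) and 2.18-fold (1.14–4.39), both below 5 CPM in both libraries. Hspa1a was 2.72-fold (1.14–7.19) and Hspa1b 1.58-fold (1.05–2.41) lower, on 8 against 19 and 42 against 58 reads. The median of all genes tested was −0.10 in this pair, so that Junb and Ier2 lay close to it, and since Smarca4 went against the labels, no direction is drawn for BRG1.

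**Figure D2:**
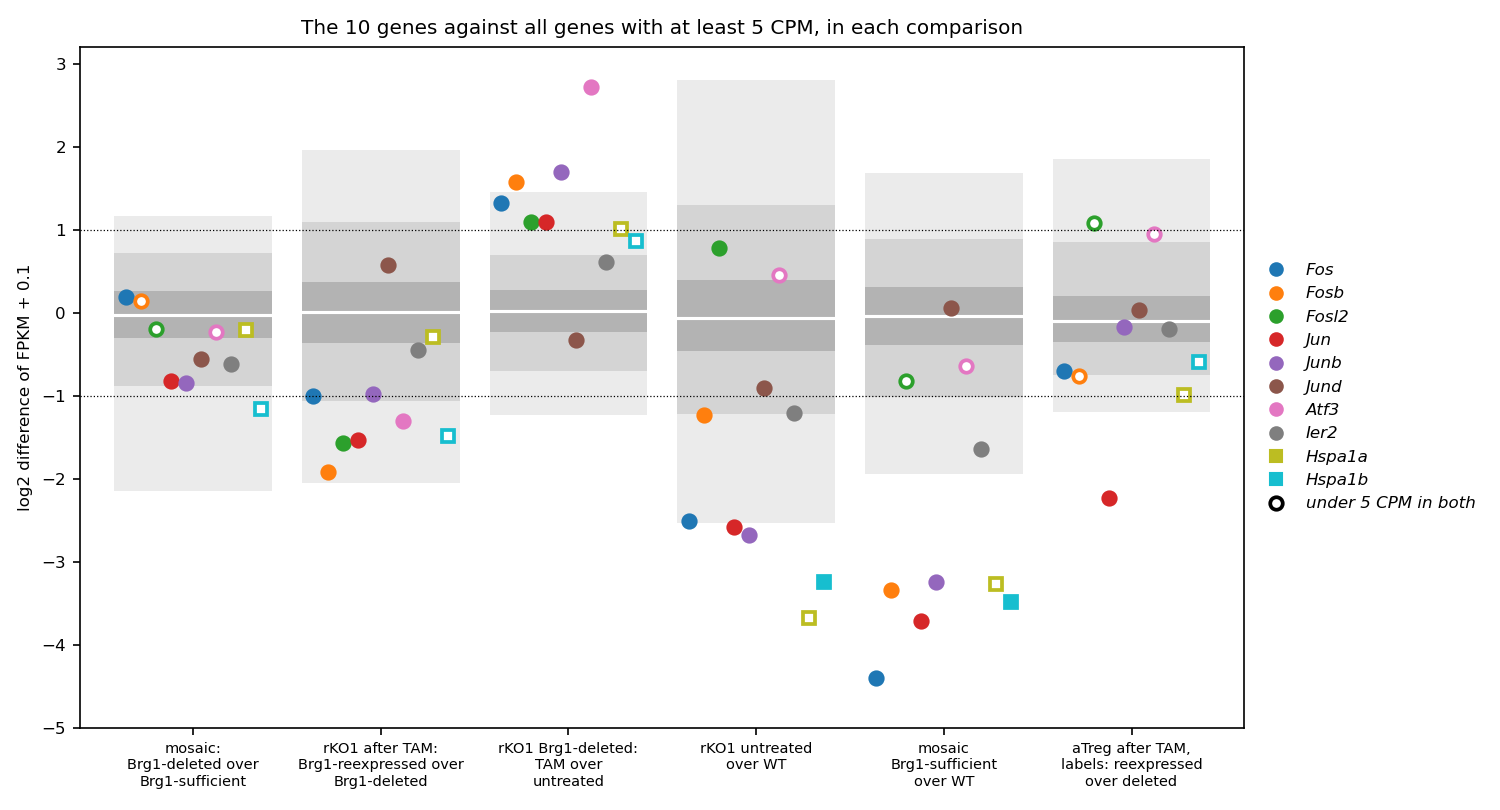
Log2 difference of each of the 10 genes (points, circles for AP-1 and Ier2, squares for HSP70) in the 6 comparisons, over grey bands for the 1st to 99th, 5th to 95th and 25th to 75th percentile of all genes tested, with the median in white. Open symbols are below 5 CPM in both libraries, and dotted lines mark 2-fold. Fos, Fosb, Jun, Junb and both HSP70 genes lie under the bands in the comparison of the mosaic Brg1-sufficient library with WT, the other 4 lie within them, and members lie to the upper side in that of TAM-treated with untreated Brg1-deleted cells, where 6 are called higher.

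The other AP-1 subunits and dimer partners were called in some pairs and not in others. Of 12 such genes, 8 were tested between the mosaic Brg1-sufficient and WT libraries and 0 were called, and 0 of 10 were called between TAM-treated and untreated Brg1-deleted cells. In the mosaic females 3 of 8 were called lower without BRG1, where 3.91% of all genes tested were, namely Maf (15.4 against 2.602 FPKM), a bZIP factor of effector T cells, Maff (2.45 against 0.595) and Batf (193 against 83.8), a partner of JUN and IRF4 in effector Treg cells. In rKO1 mice after TAM, 10 were tested, and Maf was higher with BRG1 (28.7 against 12.2 FPKM) and Batf3 lower (1.67 against 10.2). Untreated rKO1 against WT had 2 of 10 called higher, Batf3 and Jdp2, and 1 lower, Mafk, where 15.1% of all genes tested were called. In aTreg cells 0 of 8 were called.

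Other immediate-early transcription factors are induced on the same time scale as Fos. For this and the next lists, counts are to be read beside the shares called over all genes tested. These were 8.91% for mosaic Brg1-sufficient against WT, 4.18% for TAM-treated against untreated Brg1-deleted and 12% in rKO1 mice after TAM. They were 15.1% for untreated rKO1 against WT, 5.77% in the mosaic pair and 5.88% in the aTreg pair. Of 18 tested between the mosaic Brg1-sufficient and WT libraries, 6 were lower and 1 was higher, Egr1 (61.3 against 25.0 FPKM). The largest differences were those of Klf4 (0.189 against 2.81 FPKM), Ier3 (1.147 against 4.5998), Nr4a1 (24.7 against 82.4), an orphan nuclear receptor used as a gauge of T cell receptor signals, and Nr4a2 (0.675 against 2.21). Between TAM-treated and untreated Brg1-deleted cells, 5 of 18 were higher, led by Nr4a2 (4.05 against 0.598), Klf4 (4.72 against 0.741) and Nr4a1 (69.5 against 17.6), and 2 were lower, Egr2 (6.64 against 13.9) and Egr3 (2.59 against 5.38). In rKO1 mice after TAM, 8 of 18 were lower with BRG1 and 0 higher, led by Klf4 (0.519 against 4.72 FPKM), Nr4a1 (21.4 against 69.5), Ier3 (6.83 against 20.9) and Nr4a3 (2.14 against 6.47). The Egr genes are also induced within minutes, and Egr1 was highest in the mosaic Brg1-sufficient library and lowest, at 8.84 FPKM, in the Brg1-reexpressed library. Untreated rKO1 against WT had 6 of 18 lower and 2 higher (Ier3 and Egr3), the mosaic pair 2 of 15 lower (Ier5l and Cited2), and the aTreg pair 0 of 15 called.

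Feedback inhibitors shut the immediate-early response down again. Of 23 tested between the mosaic Brg1-sufficient and WT libraries, 10 were lower, among them Ppp1r15a (12.3 against 245 FPKM), which reverses the block on translation under stress, Dusp1 (20.3 against 270), the phosphatase of MAP kinases, and Tnfaip3 (3.68 against 16.4), the A20 inhibitor of NF-κB. Zfp36l1, an mRNA decay factor, was the 1 higher (102 against 17.4). Between TAM-treated and untreated Brg1-deleted cells, 8 of 22 were higher and 0 lower, led by Ppp1r15a (141 against 24.6), Tnfaip3 (37.8 against 6.99), Dusp4 (22.3 against 5.19) and Gadd45b (144 against 38.03). Untreated rKO1 against WT had 9 of 22 lower and 1 higher (Gadd45g). In rKO1 mice after TAM, 6 of 22 were lower with BRG1, none by more than Dusp10 at −1.26 on the log2 scale, and Sgk1 was higher. In the mosaic pair 3 of 23 were lower without BRG1 (Zfp36l1, Gadd45b and Trib1), and in the aTreg pair 0 of 22 were called.

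The kinases and factors upstream of AP-1 are mostly controlled as proteins, by phosphorylation. Of 18 such genes, 0 were called in the mosaic pair, 0 of 17 between TAM-treated and untreated Brg1-deleted cells and 0 of 16 in aTreg cells. Between the mosaic Brg1-sufficient and WT libraries 3 of 18 were called, all higher and so opposite to Fos. Among them were Elk1 (1.39 against 0.355 FPKM) and Elk4 (26.5 against 9.32), cofactors of serum response factor. In rKO1 mice after TAM, Map2k3 was the 1 of 17 called, higher with BRG1, and untreated rKO1 against WT had 2 of 17 called higher (Map3k5 and Elk4).

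The other heat shock chaperones and HSF1 targets include genes that most cells transcribe at rest. Their counts lay close to the shares called over all genes tested. Of 21 tested between the mosaic Brg1-sufficient and WT libraries, 2 were called lower, Hmox1 (1.26 against 17.0 FPKM), which also answers to haem and oxidative stress, and Dnajb1 (36.8 against 78.7), an HSP40 cochaperone induced by HSF1. Untreated rKO1 against WT had 4 of 21 lower, namely Dnajb1, Dnaja1, Fkbp4 and Stip1, and 0 higher, where 7.07% of all genes tested were lower. The median log2 difference of the list was −0.72 there, against −0.06 for all genes tested. Against the mosaic Brg1-sufficient library, untreated rKO1 had 6 of 22 lower and 2 higher, where 7.31% of all genes tested were lower and 9.22% higher. The list median was then −0.64, against 0.01 for all genes tested. Between TAM-treated and untreated Brg1-deleted cells, 1 of 22 was called, Dnajb4, which was higher. In rKO1 mice after TAM, Dnajb4 and Hmox1 were lower with BRG1 and Hspa2 was higher, 3 of 22 called. The mosaic pair had 1 of 20 called (Bag3, lower without BRG1), and the aTreg pair 1 of 19 (Hmox1, 43.9 against 19.4 FPKM).
Of 11 genes of the endoplasmic reticulum and integrated stress response, 1 was lower between the mosaic Brg1-sufficient and WT libraries, Dnajb9 (4.18 against 14.7 FPKM), and the same gene was the 1 of 11 that was higher after TAM (12.7 against 4.79). Sdf2l1 was the 1 of 11 lower without BRG1 in the mosaic pair. Untreated rKO1 against WT had Hspa5 and Dnajb9 lower and Asns higher among 11, while 0 of 11 were called in rKO1 mice after TAM and 0 of 11 in aTreg cells.
For 14 early genes of the T cell receptor response, some of which are also in the lists above, 5 were lower and 1 higher between the mosaic Brg1-sufficient and WT libraries, 3 higher and 2 lower after TAM, 5 lower with BRG1 in rKO1 mice, and 4 lower and 3 higher in untreated rKO1 against WT. In the mosaic and aTreg pairs 0 of 13 were called.

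**Figure D3:**
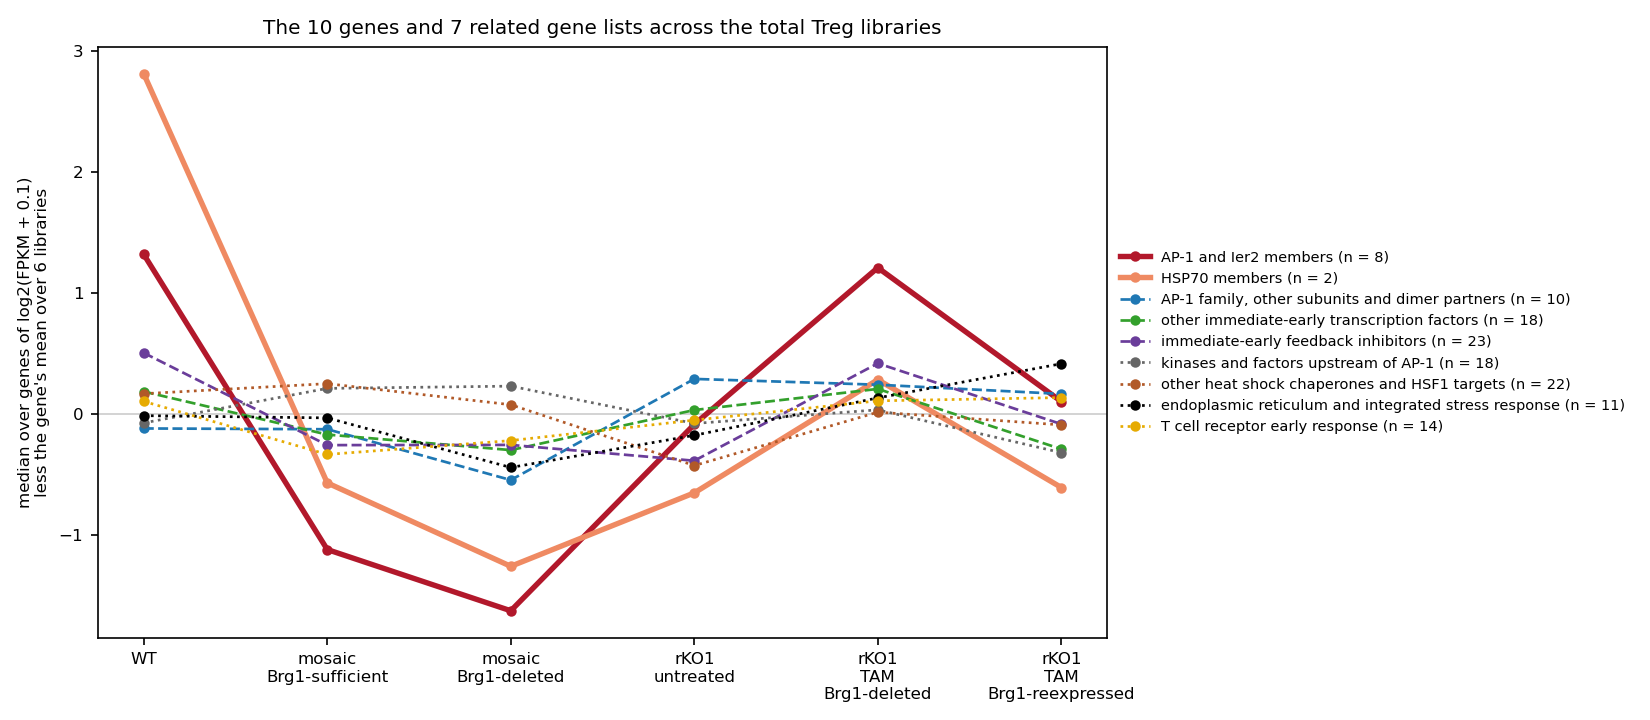
Median over the genes of each list of log2(FPKM + 0.1), less the mean of each gene over the 6 total Treg libraries (vertical axis), in each of these libraries (horizontal axis), for genes with at least 5 CPM in 1 or more of them and for all members. The AP-1 and Ier2 members run from −1.63 in the mosaic Brg1-deleted to 1.32 in the WT library, while the feedback inhibitors run from −0.39 to 0.50.

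By likeness over the 6 total Treg libraries, the gene among 5358 candidates closest to the mean course of the 8 AP-1 and immediate-early members was 2410006H16Rik, annotated as a processed transcript, with a Pearson r of 0.997, followed by Nr2c2ap (0.996), Dusp1 (0.987), Gm26809 (0.980) and Ccdc163 (0.977). Dusp1 had the widest range of these, from 14.6 FPKM in the mosaic Brg1-deleted to 270 in the WT library. Against the mean of the other 7, r was 0.970 for Fosb, 0.952 for Ier2, 0.949 for Fos and for Junb, 0.902 for Jun, 0.719 for Fosl2, 0.577 for Atf3 and −0.357 for Jund. For the HSP70 genes, the closest were Platr17 (0.995), A630023P12Rik (0.993), Gm10125 (0.992), Akr1c13 (0.985) and C230024C17Rik (0.982), all highest in WT. These figures describe 6 points that share libraries and scaling, and no inference is drawn from them.

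Markers of other cell types moved with the 10 genes in some libraries and not in others. The 10 myeloid markers, of which Itgam was near 0 throughout, summed to 439 FPKM in the WT library and to 153, 134, 250, 237 and 93.4 in the Brg1-sufficient and Brg1-deleted mosaic libraries and the rKO1 libraries (untreated, TAM-treated Brg1-deleted and Brg1-reexpressed). They were thus highest where 6 of the 10 genes were highest. Most of the WT sum was Lyz2, at 313 FPKM, and Csf1r was at 1.79 and Cd14 at 1.55. Between untreated and TAM-treated Brg1-deleted cells, where the sum of the 10 genes went from 577 to 1353 FPKM, the myeloid sum differed little but its members did not move together. The neutrophil genes S100a8 and S100a9 went from 4.07 to 16.6 and from 4.87 to 19.2 FPKM, while Tyrobp went from 73.7 to 45.98. The NK cell markers Ncr1 and Klrb1c went from 0.257 to 4.75 and from 0.0572 to 0.953 FPKM. In the Brg1-reexpressed library they were at 0 and 0.0856. They were at 3.24 and 0.471 FPKM in the mosaic Brg1-sufficient library, where the 10 genes were low, and at 0.299 and 0.245 in WT. Eomes, another CD8 T or NK cell marker, went from 1.85 to 1.03 FPKM between untreated and TAM-treated Brg1-deleted cells. The 6 erythroid markers summed to 692 FPKM in WT, 218 and 200 in the mosaic, and 608, 860 and 506 in the rKO1 libraries. The B cell markers summed to between 9.01 and 55.5 FPKM, highest in WT, with Pax5 at 0 in the untreated rKO1 library. The plasma cell sums were 45.9–73.0, the CD8 T or NK cell sums 6.55–20.3 and the dendritic cell sums 0.676–1.27 FPKM. In aTreg cells the erythroid sum was 1500 FPKM in the library labelled Brg1-deleted and 28864 in that labelled Brg1-reexpressed, and the myeloid sum 413 and 643. With the erythroid genes left out of the totals, the median of the 10 genes in the aTreg pair was −0.37, against −0.40 as deposited. The part of other cells in the levels of the 10 genes was not tested.

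**Figure D4:**
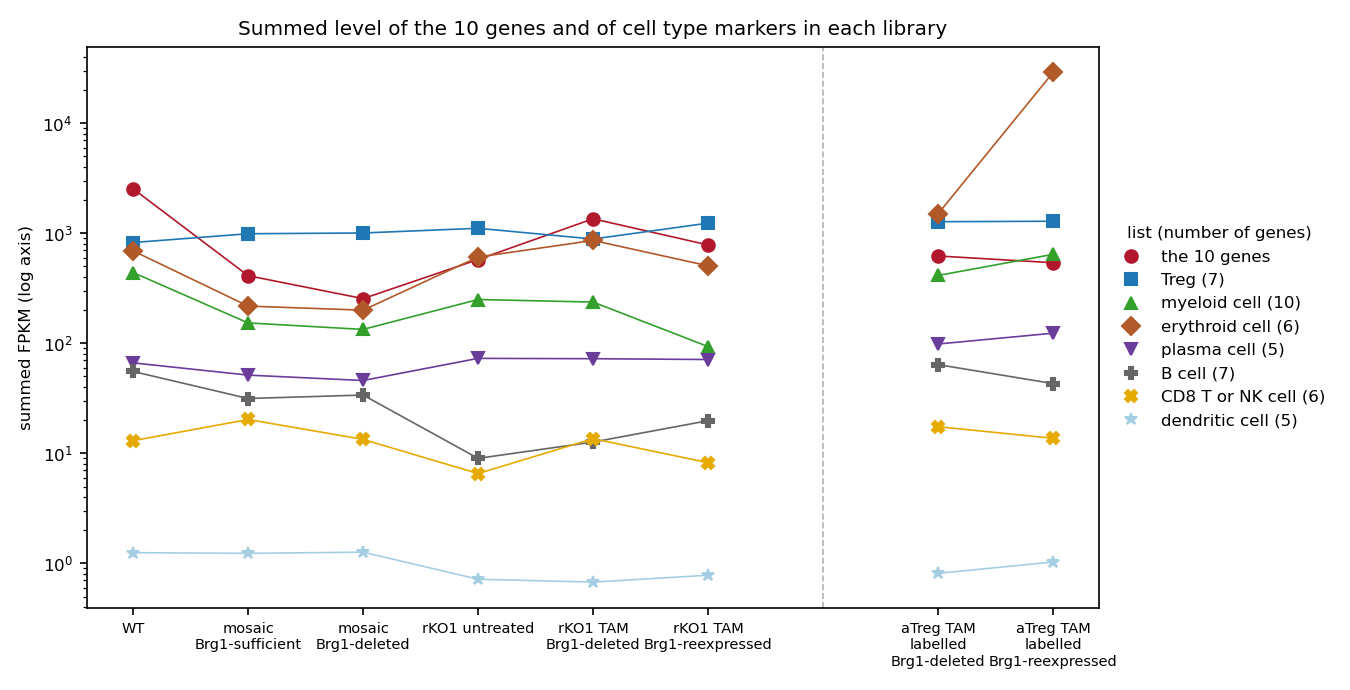
Summed FPKM (log axis) of the 10 genes and of markers of 7 cell types in each library, with the aTreg libraries right of the dashed line. Among total Treg cells the erythroid sums and the 10 genes are lowest in both mosaic libraries, the myeloid sum is lowest in the Brg1-reexpressed library, and the Treg sums lie between 823 and 1285 FPKM in all 8.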

How the data were processed

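RNA from Treg cells of 8 conditions, 1 library each, was made into cDNA with SMART-Seq v4, which does not mark strand. The deposited values are FPKM per gene, made by the authors, whose processing notes name mm10, HISAT2 2.0, StringTie 1.3.3b and featureCounts 1.5.0-p3. Reads were recovered from FPKM with the merged exon length of GENCODE M21 (GRCm38). They came out whole, within 0.02 of a read, in every total Treg library for 93.4% of 26020 genes and for 100.0% of 21242 aTreg genes, and in all 8 libraries for the 10 genes. Of 53465 identifiers, 105 were not in that annotation.

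Recovered reads served for the filter of 5 CPM, where 1 read was worth 0.0420 to 0.0659 CPM, and for exact 95% intervals of FPKM ratios (Clopper-Pearson). These cover counting error only. Fold calls and medians used log2(FPKM + 0.1) and 2-fold. With 1 library per condition the comparisons have no replicates, and no p-value is given. A floor of 3 reads replaced 0 reads in bounds. Genes were named as all 10 members, up to 4 genes with the largest called differences per list and comparison, and the 5 genes most like each mean profile over 6 libraries. The 10 genes, lists and comparisons were chosen with earlier results of these data known. Alternatives were the pseudocount, the filter, 3 scalings and, added after seeing the data, other reference libraries and a total without erythroid genes. Scripts were tested on simulated data. Promoters are from RefSeq. Scripts ran in Python 3.11.15 with pandas 2.3.3, NumPy 2.4.6 and SciPy 1.17.1, and figures were drawn in matplotlib 3.10.9. Some results are not reported here.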

Additional observations from a re-analysis of the deposited data

Results flagged for a closer look

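Beyond counting error, Jun, Junb, Ier2 and Hspa1b were higher with BRG1 in the mosaic pair and lower with it in the rKO1 pair after TAM. The share of all genes that did the same was not determined, so this is not read as a trait of the 10 genes. Fosl2 and Atf3 changed sides likewise, but lay within counting error in the mosaic pair. Hspa1a lay within counting error in both pairs, so no change of side is stated for it. Every setting has 1 library a side, so the difference between settings was not tested. Ratios are FPKM with BRG1 over FPKM without it.

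Between the mosaic females and the rKO1 mice after TAM, Jun went from 1.79 to 0.343, Junb from 1.81 to 0.508 and Ier2 from 1.54 to 0.734. Hspa1b went from 3.62 to 0.278, on 6 to 38 reads a library. The rKO1 ratios have the TAM-treated Brg1-deleted library as their reference. Against untreated rKO1 cells, the Brg1-reexpressed cells were 1.64-fold higher for Junb and 1.12-fold higher for Ier2, the direction of the mosaic pair. Jun stayed 1.36-fold lower, and Hspa1b was at 0.226 against 0.403 FPKM, on 10 and 20 reads.

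Between rKO1 total Treg cells after TAM and aTreg cells, Fosl2 went from 0.298 to 3.23 and Atf3 from 0.390 to 2.18 if the aTreg labels are taken as given. Smarca4 went against those labels, and with the labels turned the aTreg ratios would be 0.309 and 0.458, on the same side of 1 as in rKO1, so no change of direction is drawn for these genes. Both were under 5 CPM in the aTreg libraries.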

How the results depend on the processing

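No paired analysis was possible because the groups compared share fewer than 2 replicate numbers, with 1 library in each. A fit of BRG1 status that takes mosaic and rKO1 mice as replicates of each other was not run. In what follows the comparisons stand in the order of the report: mosaic pair, rKO1 pair after TAM, Brg1-deleted after TAM against untreated, untreated rKO1 against WT, mosaic Brg1-sufficient against WT, and aTreg pair.

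With a pseudocount of 1, genes called over the whole table went from 584 to 342, from 1261 to 761, from 438 to 223, from 914 to 578 (mosaic Brg1-sufficient against WT) and from 590 to 301 (aTreg), the members called in the rKO1 pair from 5 to 2, and the members' medians to 0.81 (after TAM against untreated), −1.16 (untreated against WT) and −1.54 (mosaic Brg1-sufficient against WT). With a filter of FPKM 1 the calls over all genes were 1340, 2246, 1412, 2848, 1833 and 1235, and with no filter 3733, 5328, 4189, 6126, 4462 and 3977, with 1 member called in the mosaic pair and 2 in the aTreg pair. By construction, these filters admit genes with few reads.

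Scaled by total reads, the members' median was −1.57 for untreated rKO1 against WT and −3.16 for mosaic Brg1-sufficient against WT, where own TMM gave −3.15. The highest over the second library was then 1.97 for Fos, 1.07 for Jund and 1.32 for Ier2, whose later order changed. Total reads moved the median of all genes from −0.03 to 0.10, from 0.01 to −0.29, from 0.03 to −0.09 and from −0.06 to 0.26 in the first 4 comparisons, and the share of higher among called genes from 32.2% to 47.7%, 51.7% to 23.9%, 50.9% to 36.2% and 53.2% to 77.7%. Own TMM moved that share from 41.2% to 54.5% in the mosaic Brg1-sufficient against WT comparison. Of 180 values of members under 3 other scalings, 0 changed sign and 8 changed their call.

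Chosen after seeing the data, WT in place of the mosaic Brg1-sufficient library gave a members' median of −3.35, 6 members and 1365 genes called. Untreated rKO1 in place of the Brg1-deleted library after TAM reversed the median to 0.20, with 0 members and 2013 genes called. The mosaic Brg1-sufficient library in place of WT reversed that of untreated rKO1 to 0.84, with 3 members called. The cause was not tested. Low depth limits Hspa1a, Hspa1b and Atf3 most, as their wide intervals show.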
